A study of Mus musculus with 21 samples.

Results

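Across all libraries, 10 genes of the contractile cytoskeleton were followed: Acta2, Tagln, Cnn1, Cnn2, Tpm1, Tpm2, Myl9, Actn1, Flna and Vcl. They were chosen by gene name from the 21161 names found in both FPKM tables, and each had a single entry in each table. They stand for parts of the actin and myosin machinery, and other genes of that machinery are in a wider list below. FPKM is a level scaled to transcript length and library size. The mouse cells carry the line label OG2 in every library, the fibroblasts included. For the cell states there are 3 libraries per group: 2-cell-like cells (2CLCs, which carry transcripts of the 2-cell embryo), epiblast stem cells (EpiSCs, a primed form of pluripotency), embryonic fibroblasts (MEFs) and embryonic stem cells (ESCs, a naive form), all with the treatment label WT. For lactate there are 3 libraries per dose of ESCs at 0, 60 and 80 mM sodium lactate, the 0 mM group again labelled WT. The sources used here do not say how the 2CLCs were obtained or whether feeder cells were present. No label states that the replicates were grown as separate cultures, and all p-values therefore rest on a spread between libraries that may be technical.

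Cells pull on their surroundings with bundles of actin filaments on which nonmuscle or smooth muscle myosin II slides. Tropomyosins and calponins lie along the filament, a phosphorylated light chain turns the myosin motor on, alpha-actinin and filamin tie filaments together, and vinculin couples them to integrin adhesions. Many of these genes are textbook targets of serum response factor (SRF), which binds a promoter element called the CArG box together with the actin-sensing cofactors MRTF-A and MRTF-B, and several are used as marks of smooth muscle and of activated fibroblasts.

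Library sums ran between 375926 and 519915 FPKM for the cell states and between 396792 and 409131 FPKM in the lactate table, and the read depth behind them is unknown. The labelled states carried their markers: 5 genes of the 2-cell programme summed to 10175 to 11319 FPKM in 2CLCs against 4.01 to 4.11 in ESCs, 5 primed epiblast genes to 472 to 613 FPKM in EpiSCs against 31.2 to 32.3 in ESCs, and 11 fibroblast genes to 1070 to 1100 FPKM in MEFs against 3.23 to 3.67 in ESCs. EpiSC replicate 1 stood apart: its values across genes correlated with the other 2 EpiSC libraries at 0.9559 and 0.9547 (Pearson r), while those 2 correlated at 0.9924. In bulk RNA, fewer cells of a type and less RNA per cell cannot be told apart.

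Promoters of 9 of the 10 genes, all but Tagln, were matched by symbol in RefSeq (GRCm38.p6), whose starts can differ from those of the gene positions given here. The 250 bases before each start were searched on both strands for 2 textbook elements of contractile genes: the CArG box (2 C letters, a core of 6 A or T letters, 2 G letters) and the MCAT element (CATTCC). A full CArG box was found in Cnn2, Myl9 and Vcl, which is 3 of 9 members (33.3%) against 482 of all 32851 promoters (1.47%). Allowing 1 other letter in the core gave matches in Acta2 and Myl9, 2 of 9 members (22.2%), and 7.24% of all promoters hold such a looser match. MCAT letters were found in Acta2, Tpm1, Flna and Vcl, 4 of 9 members (44.4%) against 12.6% of all promoters. Cnn1, Tpm2 and Actn1 held none of these letters in this window. A match is a run of letters and not a measured binding site. The 4 promoters with CArG letters are shown because they carry the motif, and Cnn1 because it held none, each 5′ to 3′ on its gene's strand and ending at the base before the start, with CArG and MCAT letters in capitals.
Acta2, chr19:34255374-34255623, minus strand: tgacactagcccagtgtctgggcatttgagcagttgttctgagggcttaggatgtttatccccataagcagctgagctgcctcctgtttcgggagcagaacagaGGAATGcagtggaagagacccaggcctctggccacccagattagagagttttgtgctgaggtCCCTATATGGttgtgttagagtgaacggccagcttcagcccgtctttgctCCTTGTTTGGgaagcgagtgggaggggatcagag
Cnn2, chr10:79988350-79988599, plus strand: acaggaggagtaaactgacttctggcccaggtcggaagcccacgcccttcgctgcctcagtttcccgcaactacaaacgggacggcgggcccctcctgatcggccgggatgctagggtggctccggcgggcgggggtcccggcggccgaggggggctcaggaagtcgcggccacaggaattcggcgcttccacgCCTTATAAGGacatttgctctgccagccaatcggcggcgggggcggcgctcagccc
Myl9, chr2:156775214-156775463, plus strand: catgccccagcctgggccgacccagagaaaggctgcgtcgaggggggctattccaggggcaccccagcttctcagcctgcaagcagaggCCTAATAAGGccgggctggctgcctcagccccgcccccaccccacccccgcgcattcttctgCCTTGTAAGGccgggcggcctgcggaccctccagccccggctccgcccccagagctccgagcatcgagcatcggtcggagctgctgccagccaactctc
Vcl, chr14:20929148-20929397, plus strand: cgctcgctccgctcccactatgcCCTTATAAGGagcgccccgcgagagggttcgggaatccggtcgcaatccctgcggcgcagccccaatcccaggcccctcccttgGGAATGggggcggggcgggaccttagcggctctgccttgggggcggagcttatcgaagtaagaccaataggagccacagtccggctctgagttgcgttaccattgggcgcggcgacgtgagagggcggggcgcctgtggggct
Cnn1, chr9:22099003-22099252, plus strand: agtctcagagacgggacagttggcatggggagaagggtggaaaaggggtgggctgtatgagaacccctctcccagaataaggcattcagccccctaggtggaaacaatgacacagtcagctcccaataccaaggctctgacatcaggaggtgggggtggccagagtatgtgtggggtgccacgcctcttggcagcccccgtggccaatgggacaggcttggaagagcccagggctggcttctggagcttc

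Across the cell states the contractile genes stood highest in MEFs, and they summed to 3117 ± 70.8 FPKM there, against 151 ± 2.03 in 2CLCs, 485 ± 126 in EpiSCs and 223 ± 7.04 in ESCs (SD, n = 3 each). For Cnn2, Tpm1, Tpm2, Vcl and Flna the mean levels ran 2CLC, ESC, EpiSC, MEF from low to high, with overlapping libraries only between 2CLC and ESC for Vcl. With limma and Benjamini-Hochberg adjustment over all tested genes (threshold 0.05), all 10 were higher in MEFs than in ESCs, where 34.4% of all tested genes were higher and 40.9% lower. In EpiSCs 9 were higher than in ESCs and none lower (33.2% of all tested genes were higher, 26.5% lower). In 2CLCs none was higher than in ESCs and 5 were lower (20.1% of all tested genes were higher, 56.4% lower). The median log2 fold change of the 10 was 3.98 in MEFs, 1.48 in EpiSCs and -0.27 in 2CLCs, beside medians of -0.07, 0.01 and -0.46 over all genes tested. The 3 comparisons share the ESC libraries. Acta2 and Cnn1 passed the filter on low values (1 FPKM in at least 3 libraries) through EpiSCs and MEFs alone, as did Tagln but for a single 2CLC library, so for these 3 the filter itself favoured a difference.

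**Figure D1:**
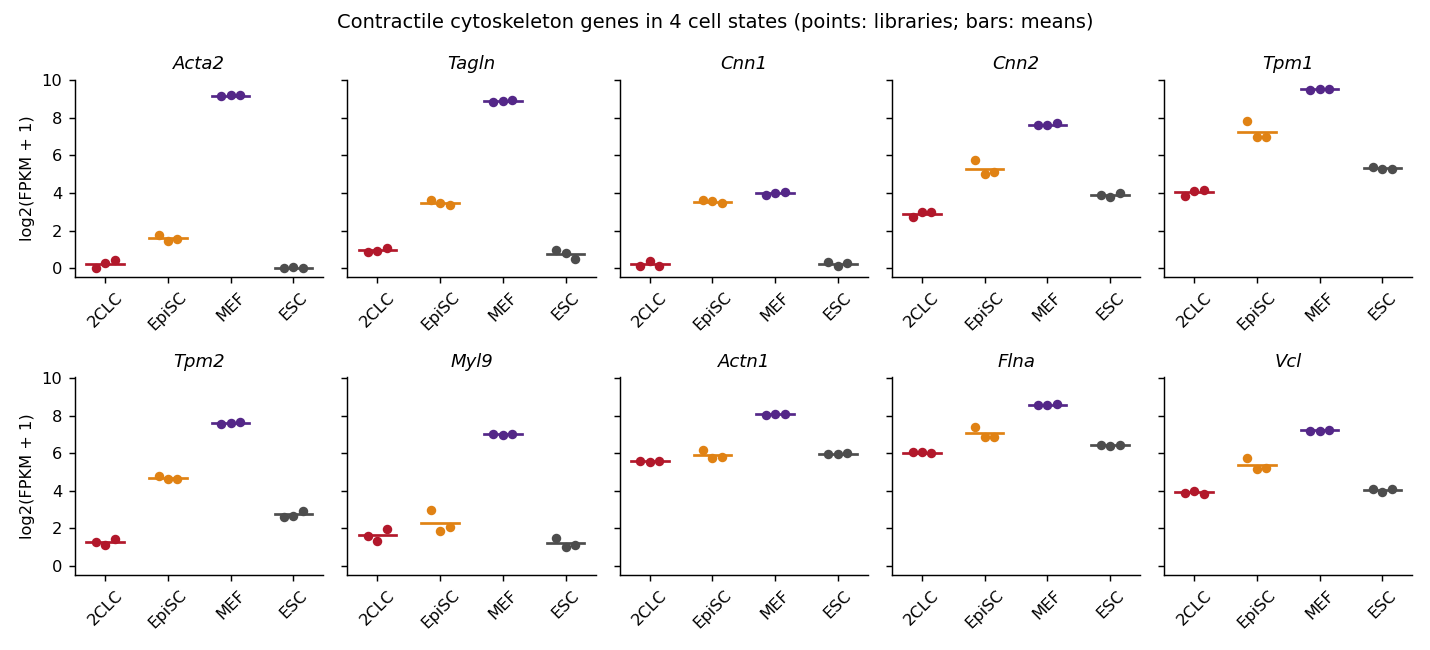
Level of each contractile gene as log2(FPKM + 1) on the vertical axis in 2CLCs, EpiSCs, MEFs and ESCs, with points for the 3 libraries of a group and bars for their mean. MEFs are highest in every panel, Cnn1 in EpiSCs (9.90 to 11.2 FPKM) comes close to MEFs (13.9 to 15.7 FPKM), and Acta2 lies near 0 in 2CLCs and ESCs.

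The genes used as marks of smooth muscle and activated fibroblasts, Acta2, Tagln and Cnn1, were low in 2CLCs and ESCs and higher in EpiSCs and MEFs. Acta2, the smooth muscle alpha-actin gene (chr19:34241090-34255590, GRCm38), was listed at 0, 0.202 and 0.370 FPKM in 2CLCs, at 2.39, 1.71 and 1.96 in EpiSCs, at 568, 584 and 592 in MEFs, and at 0, 0.0592 and 0 in ESCs. Every EpiSC and MEF library lay above every ESC library, while 2CLCs and ESCs overlapped. Since ESCs are listed at 0 in most libraries, no fold is given, and the fitted log2 differences of 1.56 in EpiSCs (adjusted p = 4.83e-07) and 9.16 in MEFs (adjusted p = 1.24e-13) depend on the pseudocount of 1 FPKM. The coding sequence of Acta2 is closely similar to those of Actg2 and Acta1, which reached 31.8 ± 5.99 and 22.2 ± 1.88 FPKM in MEFs, and the sources used here do not say how reads were split among them.

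Tagln, which encodes the actin-binding protein transgelin (SM22, chr9:45929619-45936058), had 0.813, 0.901 and 1.13 FPKM in 2CLCs, 11.2, 10.1 and 9.08 in EpiSCs, 463, 468 and 489 in MEFs, and 0.939, 0.731 and 0.425 in ESCs. MEFs stood 678-fold above ESCs (log2 fold change 8.14, SE 0.11, adjusted p = 2.69e-13), and EpiSCs 14.5-fold (2.72, SE 0.11, adjusted p = 4.61e-09). Tagln overlaps Pcsk7 and an antisense gene, Gm48529, on the other strand, and strand use in the authors' counting is not stated. Cnn1, calponin 1 (chr9:22099216-22109630), a smooth muscle inhibitor of myosin's motor activity, followed another pattern. It had 0.0773, 0.320 and 0.0885 FPKM in 2CLCs, 11.2, 10.8 and 9.90 in EpiSCs, 13.9, 15.2 and 15.7 in MEFs, and 0.248, 0.0814 and 0.225 in ESCs. Its EpiSC libraries reached 71.1% of the mean MEF level, and both states lay far above ESCs, 57.5-fold in EpiSCs (log2 fold change 3.30, adjusted p = 4.19e-10) and 80.9-fold in MEFs (3.75, adjusted p = 2.98e-11).

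Tpm1, Tpm2 and Cnn2 code for thin-filament proteins and were expressed in ESCs at 5 FPKM or more. Tpm1, the alpha-tropomyosin gene (chr9:67022590-67049406), had 13.1, 16.1 and 17.0 FPKM in 2CLCs, 225, 127 and 127 in EpiSCs, 720.2, 729.9 and 749.8 in MEFs, and 41.3, 37.4 and 38.3 in ESCs. Tpm2, the beta-tropomyosin gene (chr4:43514711-43523765), had 1.44, 1.16 and 1.66 FPKM in 2CLCs, 26.5, 23.5 and 23.7 in EpiSCs, 184, 191 and 202 in MEFs, and 5.14, 5.38 and 6.63 in ESCs. Cnn2, the calponin of non-muscle cells (chr10:79988584-79996062), had 5.55, 6.87 and 6.99 FPKM in 2CLCs, 53.8, 31.0 and 33.3 in EpiSCs, 194, 195 and 208 in MEFs, and 13.6, 12.8 and 15.0 in ESCs. No 2 groups overlapped for any of these 3 genes. Against ESCs, Tpm2 was 33.7-fold, Tpm1 18.8-fold and Cnn2 14.4-fold higher in MEFs, and 4.30-, 4.10- and 2.85-fold higher in EpiSCs. The EpiSC log2 fold changes were 1.93 (adjusted p = 2.53e-08) for Tpm2, 1.95 (adjusted p = 3.92e-06) for Tpm1 and 1.41 (adjusted p = 2.68e-05) for Cnn2.

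Myl9, the regulatory light chain of smooth muscle and nonmuscle myosin II (chr2:156775420-156781658), had 2.01, 1.52 and 2.96 FPKM in 2CLCs, 6.72, 2.63 and 3.14 in EpiSCs, 128, 126 and 130.1 in MEFs, and 1.78, 0.974 and 1.16 in ESCs. Relative to ESCs the level was 98.1-fold in MEFs (log2 fold change 5.82, adjusted p = 1.97e-09) and 3.19-fold in EpiSCs (1.10, adjusted p = 0.00344), where replicate 1 held 2.33 times the mean of the other libraries. The crosslinkers Actn1 and Flna, and vinculin, were abundant in every state and spanned a narrower range. Actn1, alpha-actinin 1 (chr12:80167547-80260371), had 47.4, 44.6 and 46.9 FPKM in 2CLCs, 71.4, 52.5 and 54.6 in EpiSCs, 265, 272 and 271 in MEFs, and 61.0, 61.7 and 63.4 in ESCs. Flna, filamin A (chrX:74223461-74249820), had 65.2, 64.8 and 62.9 FPKM in 2CLCs, 168, 117 and 116 in EpiSCs, 373, 377 and 385 in MEFs, and 86.1, 80.8 and 85.8 in ESCs. MEFs stood 4.34-fold above ESCs for Actn1 (adjusted p = 2.02e-09) and 4.49-fold above them for Flna (adjusted p = 1.06e-08). Vcl, vinculin (chr14:20929398-21033676), had 13.9, 14.7 and 13.4 FPKM in 2CLCs, 53.2, 34.6 and 35.4 in EpiSCs, 145, 146 and 151 in MEFs, and 16.0, 14.5 and 16.3 in ESCs, and was 9.45-fold higher in MEFs (3.16, adjusted p = 1.17e-09) and 2.63-fold higher in EpiSCs (1.32, adjusted p = 6.18e-06) than in ESCs. Flna was 1.58-fold higher in EpiSCs than in ESCs (0.64, adjusted p = 0.000615).

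Actn1 was the single member that did not pass in EpiSCs, with a log2 fold change of -0.07 (SE 0.09, adjusted p = 0.554). Replicate 1 was its highest EpiSC library and lay above all ESC libraries, while the other 2 lay below them. Without that library the log2 fold change was -0.21 (adjusted p = 0.000545), a lower level in EpiSCs. The same library was the highest EpiSC library for the other 9 members as well. Its level over the mean of the other 2 was 1.77 for Tpm1, 1.67 for Cnn2, 1.52 for Vcl, 1.45 for Flna and 1.08 for Cnn1, beside a median of 1.01 over 12110 genes at 1 FPKM or more in every EpiSC library. The 9 members higher in EpiSCs passed without it too.

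EpiSC levels were set beside MEF levels because both groups stood above ESCs, for most contractile genes and for the sum of the fibroblast markers. As a share of the mean MEF level, EpiSCs held 0.347% for Acta2, 2.14% for Tagln and 3.25% for Myl9. The share was 12.8% for Tpm2, 19.8% for Cnn2, 21.8% for Tpm1, 22.1% for Actn1, 27.9% for Vcl and 35.3% for Flna. The 11 fibroblast markers ranged from 0.0426% for Prrx1 to 9.89% for Thy1 in EpiSCs, with a median of 1.03%. Acta2, Tagln and Myl9 lay within that range and the other contractile genes above it. The share of all genes above it was not computed. Col1a1 and Col1a2, which encode type I collagen, stood at 0.276% and 0.492%. Part of this order was present in ESCs as well. There Actn1 (23.1% of the MEF level), Flna (22.3%), Vcl (10.6%) and Cnn2 (6.94%) lay above the highest fibroblast marker, Twist1 (6.23%). The summed fibroblast markers were 13.9 to 15.0 FPKM in EpiSCs against 3.23 to 3.67 FPKM in ESCs, where Dcn, Prrx1 and Postn were at 0 in every library. Thy1 was the largest part of the EpiSC sum, at 8.37, 6.83 and 6.75 FPKM. Twist1, Pdgfra and Lum did not rise with the sum. Their EpiSC means were 5.74%, 0.320% and 0.258% of the MEF level, against 6.23%, 0.417% and 0.537% in ESCs. The part of the fibroblast markers in the EpiSC levels of the contractile genes was not tested.

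**Figure D2:**
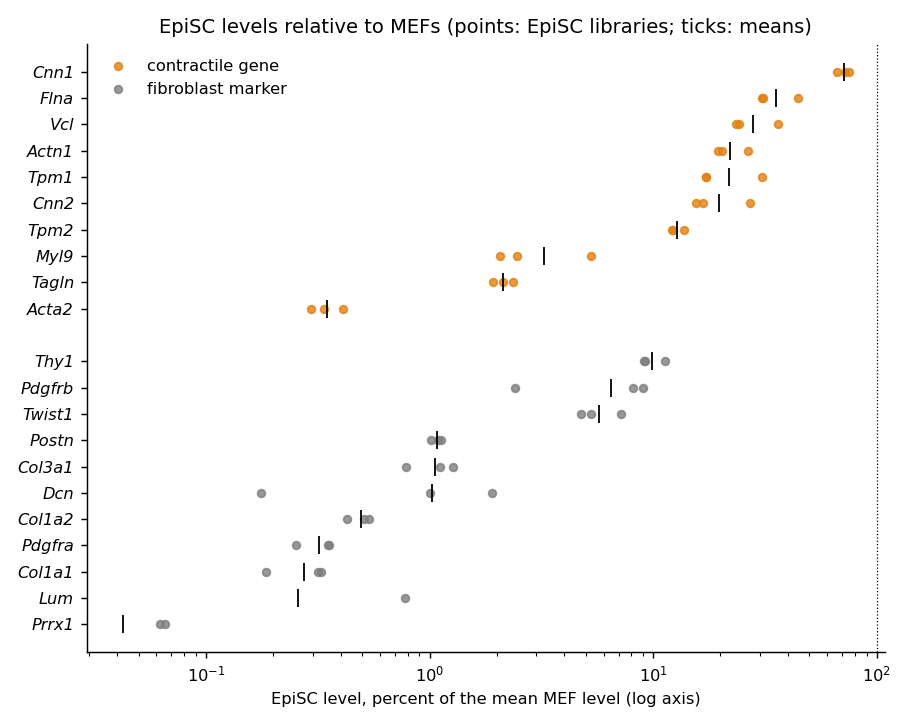
EpiSC level of each contractile gene (upper block) and each fibroblast marker (lower block) in percent of the mean MEF level, on a log axis, with points for EpiSC libraries above 0 and ticks for the mean of all 3. Cnn1 lies at 71.1%, Acta2 at 0.347% within the range of the fibroblast markers, and the dotted line marks the MEF level.

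Of the markers of differentiated smooth muscle, some were higher in EpiSCs than in ESCs and others were near 0 in both. Myh11, the smooth muscle myosin heavy chain, stood at 0.00952 ± 0.0165 FPKM in EpiSCs, against 4.94 ± 0.541 in MEFs and 0.0132 ± 0.0228 in ESCs (SD, n = 3 each). Actg2, smooth muscle gamma-actin, was listed at 0 in every EpiSC and ESC library. Des, the intermediate filament gene desmin, stood at 9.66 ± 0.793 FPKM in EpiSCs against 1.74 ± 0.130 in ESCs. Smtn, smoothelin, made up most of the markers' sum, at 18.9 ± 2.49 FPKM in EpiSCs against 9.91 ± 0.136 in ESCs (log2 fold change 0.86, adjusted p = 1.82e-05). Lmod1, leiomodin 1, was higher at a low level, 0.585 ± 0.0963 FPKM in EpiSCs against 0.0409 ± 0.0395 in ESCs (0.61, adjusted p = 1.04e-05). The 5 smooth muscle markers in the cell-state table summed to 27.2 to 32.1 FPKM in EpiSCs and 80.5 to 102 FPKM in MEFs, against 11.4 to 11.9 FPKM in ESCs. In 2CLCs they summed to 14.1 to 17.2 FPKM. Smtn (0.45, adjusted p = 0.00149) and Lmod1 (0.25, adjusted p = 0.00464) were called higher than in ESCs by limma there too. Lmod1 stood at only 0.234 to 0.237 FPKM in 2CLCs, and it passed the filter on low values through MEFs alone.

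In 2CLCs the 5 lower genes were Tpm2, Tpm1, Cnn2, Actn1 and Flna. Tpm2 was 4.03-fold, Tpm1 2.53-fold and Cnn2 2.13-fold lower than in ESCs, with log2 fold changes of -1.47 (SE 0.10, adjusted p = 9.87e-08), -1.29 (SE 0.19, adjusted p = 5.91e-05) and -0.99 (SE 0.17, adjusted p = 0.000242). Actn1 and Flna were 1.34- and 1.31-fold lower, at -0.41 (adjusted p = 0.00178) and -0.38 (adjusted p = 0.0105). Vcl at -0.15, Cnn1 at -0.03, Acta2 at 0.21, Tagln at 0.21 and Myl9 at 0.45 did not pass, with adjusted p between 0.115 and 0.803. These directions depend on scale, because the whole 2CLC distribution was shifted by a median of -0.46 against ESCs in the deposited FPKM. Median-of-ratios scaling brought that median to 0.039, and the split of all called genes changed to 6329 higher and 5230 lower, beside 3296 higher and 9220 lower as deposited. Relative to the median of all genes as deposited, Tpm2 stood at -1.01, Tpm1 at -0.83 and Cnn2 at -0.53, while Actn1 stood at 0.04 and Flna at 0.08. With median-of-ratios scaling, Tpm2 (-0.94) and Tpm1 (-0.56) were still called lower, Cnn2 (-0.30, adjusted p = 0.136) was not called, and Actn1 (0.34), Flna (0.38), Vcl (0.58), Tagln (0.58) and Myl9 (0.96) were called higher. Quantile normalization called 3 lower and none higher.

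**Figure D3:**
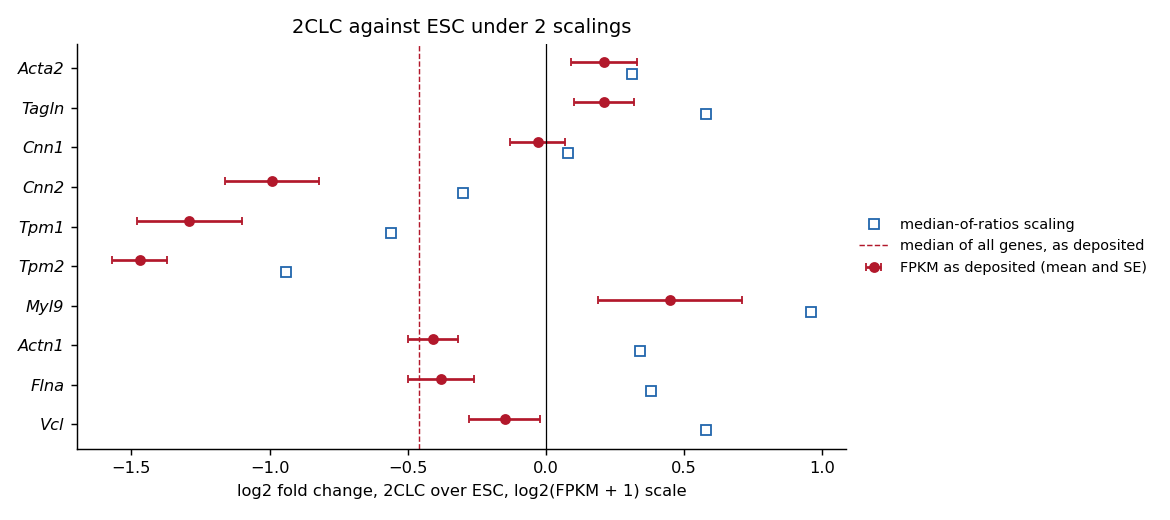
Log2 fold change of 2CLCs over ESCs on the log2(FPKM + 1) scale for each contractile gene, as deposited (filled points with SE) and with median-of-ratios scaling (open squares), with the median of all genes as deposited as a dashed line at -0.46. Tpm1 and Tpm2 lie below 0 under both, and Actn1, Flna and Vcl change side.

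A wider list of 47 genes of the same machinery, chosen by role, held 45 genes that were tested in the cell states. In MEFs 40 of them were higher than in ESCs and 2 lower, with a median log2 fold change of 2.12. Some of the 40, among them Actg2, Lmod1 and Myh11, reached 1 FPKM in MEF libraries alone. For these the filter itself favoured a difference. Of all tested genes 34.4% were higher and 40.9% lower in MEFs, with a median of -0.07. All 10 adhesion genes and all 6 measured regulators were among the 40. Zyx, which encodes the adhesion protein zyxin, stood at 148 ± 3.30 FPKM in MEFs against 7.92 ± 0.206 in ESCs (log2 fold change 4.06, adjusted p = 5.3e-12). The 2 lower genes were Myl12b, a nonmuscle myosin light chain (-0.86), and Ppp1r12a, a subunit of the myosin phosphatase (-0.49). Myl12b and Myl9 thus changed in opposite directions in MEFs, while Ppp1r12a lost its call with median-of-ratios scaling, quantile normalization, or without ESC replicate 3 or MEF replicate 1 or 2.

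In EpiSCs 23 of the 45 were higher than in ESCs, 9 lower and 13 did not pass, with a median of 0.32 (33.2% of all tested genes were higher, 26.5% lower). Higher were 7 of 10 adhesion genes, 5 of 7 thin-filament genes and 4 of 5 genes for TGF-beta and its receptors. Some of those 4 lay below 1 FPKM in EpiSCs. Flnc, the muscle filamin (3.18), Csrp1, a LIM-domain protein of actin bundles (2.95), Cald1, caldesmon (2.47), and Zyx (1.81) were among the 23. The 9 lower genes included the adhesion genes Pxn (-0.68) and Itga5 (-0.94) and the thin-filament gene Tpm3 (-0.41). Actb (-0.46) and the regulator Rhoa (-0.16) were lower as well. Srf itself was higher, at 29.4 ± 5.19 FPKM in EpiSCs against 14.4 ± 0.757 in ESCs (0.97, adjusted p = 1.34e-05). Its cofactor genes Mrtfa (-0.29) and Mrtfb (-0.09) did not pass. The secreted matrix genes Ccn1 and Ccn2 parted: Ccn1 was higher (2.06, adjusted p = 3.47e-06) and Ccn2 lower (-2.51, adjusted p = 1.07e-08) in EpiSCs. Without EpiSC replicate 1, 14 of the list were lower, beside 4989 of all 15935 tested genes.

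In 2CLCs 5 of the 45 were higher than in ESCs and 25 lower, with a median of -0.43 that lies close to the -0.46 of all genes. Of all tested genes 20.1% were higher and 56.4% lower. With median-of-ratios scaling 17 of the list were higher and 8 lower, beside 6329 higher and 5230 lower of all 16494 tested genes. All 6 measured regulators were lower as deposited, and Mrtfa stood at 1.86 ± 0.376 FPKM in 2CLCs against 6.30 ± 0.303 in ESCs (-1.36, adjusted p = 2.02e-06). Under median-of-ratios scaling Mrtfa stood at -0.79, Mrtfb at -0.73, Srf at -0.06 and Rhoa at 0.33. Tagln2, the transgelin of non-muscle cells, stood at -1.92 as deposited and at -1.19 with that scaling, and Itga5, the fibronectin receptor subunit, at -1.81 and -1.12. Ccn2 was higher in 2CLCs under both scalings, at 1.14 and 1.85.

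**Figure D4:**
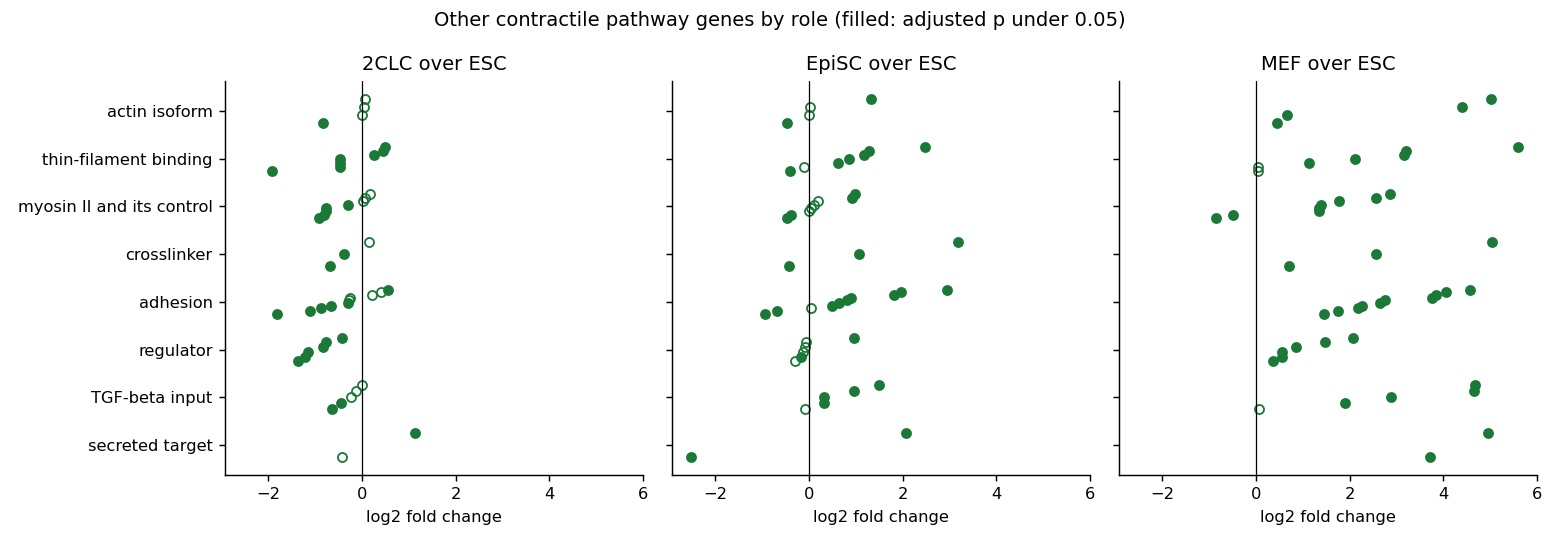
Log2 fold change on the log2(FPKM + 1) scale, as deposited, of the other genes of the contractile machinery in 2CLCs, EpiSCs and MEFs over ESCs, in rows by role, with 1 point per gene. Filled points passed an adjusted p of 0.05, and 5 of 45 lie right of 0 and filled in 2CLCs, 23 in EpiSCs and 40 in MEFs. Of all tested genes, 20.1%, 33.2% and 34.4% were higher in 2CLCs, EpiSCs and MEFs. Some of the 40 passed the filter on low values through MEFs alone.

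With sodium lactate some contractile genes of ESCs were higher and others lower, at shares near those of all genes. Of the 10 genes, 7 passed the filter in the lactate table, Tpm2 with 1, 2 and 3 libraries at 1 FPKM or more at 0, 60 and 80 mM. At 60 mM, 2 were higher and 2 lower than at 0 mM (23.5% of all tested genes were higher, 18.6% lower), and at 80 mM 3 were higher and 2 lower (30.0% higher, 23.1% lower). Both doses were compared with the same 0 mM libraries. The median log2 fold change of the 7 was 0.15 at 60 mM and 0.14 at 80 mM, beside 0.03 over all genes at each dose. Under median-of-ratios scaling the split of all genes at 80 mM changed to 3253 higher and 3920 lower, beside 3977 higher and 3064 lower as deposited.

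Both crosslinkers among the members, Actn1 and Flna, fell with lactate. Actn1 had 80.0, 84.1 and 87.0 FPKM at 0 mM, 64.6, 65.9 and 61.7 at 60 mM, and 64.0, 61.6 and 65.3 at 80 mM. Flna had 59.3, 56.6 and 59.9 FPKM at 0 mM, 48.8, 49.4 and 50.3 at 60 mM, and 47.1, 46.4 and 45.7 at 80 mM. Every treated library lay below every 0 mM library for both genes. Actn1 fell by 0.38 at 60 mM (log2 scale, SE 0.04, adjusted p = 6.19e-05) and by 0.39 at 80 mM (SE 0.04, adjusted p = 2.64e-05), and Flna fell by 0.24 (SE 0.03, adjusted p = 0.000284) and 0.33 (SE 0.03, adjusted p = 1.84e-05). These calls held under every alternative that was run.

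Cnn2 and Tpm1 were higher at both doses and Tpm2 at 80 mM. Cnn2 had 7.41, 7.94 and 7.78 FPKM at 0 mM, 8.90, 9.33 and 8.65 at 60 mM, and 10.1, 9.50 and 9.69 at 80 mM, with no overlap between any 2 doses. Its log2 fold change was 0.19 at 60 mM (SE 0.05, adjusted p = 0.0152) and 0.31 at 80 mM (SE 0.05, adjusted p = 0.000828). Tpm2 had 1.37, 0.816 and 0.766 FPKM at 0 mM, 1.31, 2.03 and 0.961 at 60 mM, and 2.50, 2.28 and 2.15 at 80 mM. It was 2.35-fold higher at 80 mM than at 0 mM (0.75, SE 0.17, adjusted p = 0.00347), while 60 mM overlapped 0 mM (0.29, adjusted p = 0.193). Tpm1 had 33.3, 33.3 and 35.4 FPKM at 0 mM, 37.6, 39.8 and 40.7 at 60 mM, and 41.5, 35.3 and 39.0 at 80 mM, where replicate 2 fell within the 0 mM range. Its log2 fold changes of 0.21 (adjusted p = 0.0171) and 0.17 (adjusted p = 0.0278) were called as deposited. The call at 80 mM was lost with median-of-ratios scaling (0.11, adjusted p = 0.144) and without 0 mM replicates 1 or 2 or 80 mM replicates 1 or 3, with adjusted p between 0.0732 and 0.103. The call at 60 mM was lost without 0 mM replicates 1 or 2 or 60 mM replicates 2 or 3, with adjusted p between 0.0504 and 0.059. Cnn2 at 60 mM lost its call without 0 mM replicate 1 (adjusted p = 0.0538) or 60 mM replicate 2 (adjusted p = 0.0591).

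Myl9 and Vcl did not pass at either dose. Vcl had 17.3, 17.7 and 17.8 FPKM at 0 mM, 18.3, 20.3 and 20.4 at 60 mM, and 20.7, 19.7 and 18.1 at 80 mM, so that every treated library lay above every 0 mM library, with log2 fold changes of 0.15 (adjusted p = 0.0611) and 0.14 (adjusted p = 0.0672). Myl9 had 1.45, 1.60 and 1.40 FPKM at 0 mM, 1.19, 1.43 and 1.85 at 60 mM, and 2.13, 1.52 and 1.37 at 80 mM, with all 3 doses overlapping. Tagln, at 0.239 to 1.05 FPKM, and Cnn1, at 0 to 0.232 FPKM, overlapped between all doses and were not tested. Acta2 was listed at 0 in every 80 mM library and at no more than 0.147 FPKM elsewhere. Between 80 and 60 mM none of the 7 was called by limma (4.06% of all tested genes were higher, 2.11% lower), where 2 of them, Flna (log2 fold change -0.09, adjusted p = 0.131) and Tpm2 (0.46, adjusted p = 0.133), had an unadjusted p under 0.05. For all genes, that step called 539 higher and 280 lower as deposited, and 449 higher and 466 lower with median-of-ratios scaling.

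**Figure D5:**
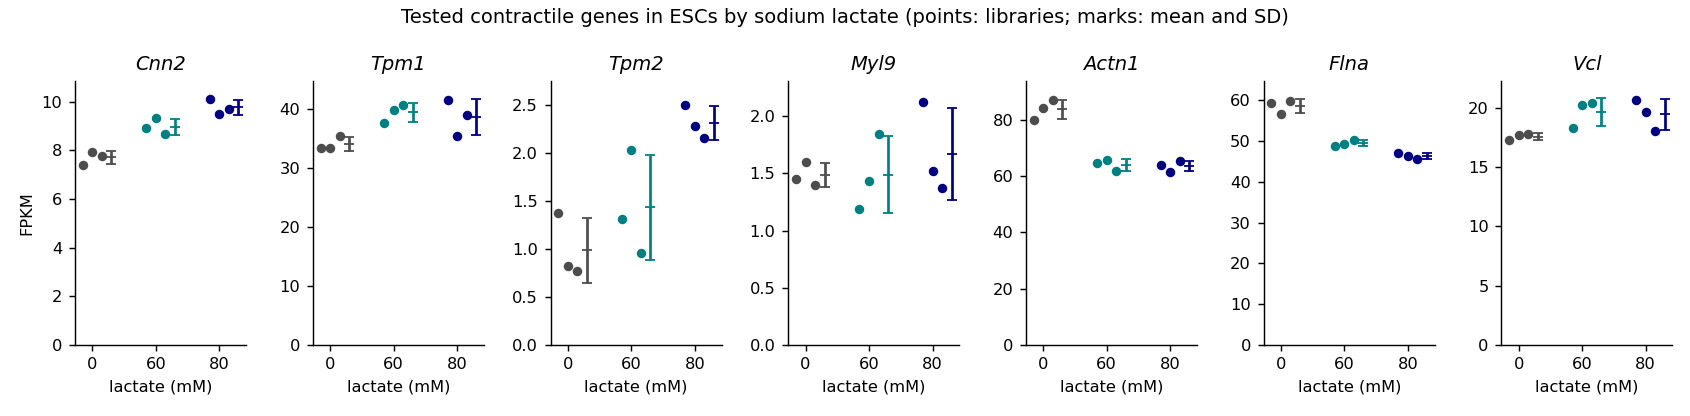
FPKM of the 7 tested contractile genes in ESCs with 0, 60 and 80 mM sodium lactate on linear axes that start at 0, with points for the 3 libraries of a dose and a mark with bars for mean and SD. Actn1 and Flna are lower at 60 and 80 mM than at 0 mM, Cnn2 is higher at each dose, and Tpm2 at 80 mM (2.15 to 2.50 FPKM) lies above 0 mM (0.766 to 1.37 FPKM).

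Of the wider list, 36 genes were tested with lactate: 12 were higher and 10 lower at 60 mM, 15 higher and 10 lower at 80 mM, with medians of -0.01 and 0.03. Of all tested genes 23.5% were higher and 18.6% lower at 60 mM, 30.0% higher and 23.1% lower at 80 mM, with a median of 0.03 at each dose. Tropomyosin genes parted: Tpm3 (-0.14, adjusted p = 0.00193) and Tpm4 (-0.23, adjusted p = 0.00445) were lower at 80 mM where Tpm2 was higher. Calponin 3 (Cnn3, -0.23, adjusted p = 8.16e-05) was lower where Cnn2 was higher. Where the members Actn1 and Flna were lower, Actn4, alpha-actinin 4, did not pass (-0.04 at 60 mM, 0.10 at 80 mM). Of the 2 crosslinkers of the wider list that were tested, 1 was higher and 0 lower at each dose. Srf (0.33), Mrtfa (0.44), Zyx (0.52), Ccn1 (0.49) and Ccn2 (0.41) were higher at 80 mM. Of the same roles, the regulators Mrtfb (-0.14), Rock1 (-0.05) and Rock2 (-0.07) did not pass. Of the 10 adhesion genes 4 were higher and 3 lower, the lower ones being Tln1 (-0.31), Lpp (-0.25) and Itgb1 (-0.12). Between 80 and 60 mM 3 of the 36 were higher, among them Zyx (0.30) and Ccn2 (0.31), and none lower; without a filter, 60 mM replicate 3 or 80 mM replicate 1 or 2, a single gene was called. Summed fibroblast markers were 2.74 to 2.85 FPKM at 0 mM, 4.37 to 5.81 at 60 mM and 6.18 to 6.75 at 80 mM, and summed 2-cell markers 24.8 to 25.9, 51.8 to 56.1 and 83.7 to 86.2. Summed primed epiblast markers were 54.8 to 59.9 FPKM at 0 mM, 80.5 to 88.2 at 60 mM and 87.2 to 91.7 at 80 mM, and summed trophectoderm markers 11.2 to 11.8, 15.3 to 16.6 and 17.1 to 18.9. Naive stem cell markers summed to 1667 to 1721, 1886 to 1958 and 1967 to 2036 FPKM. The sums of these 5 lists lay above 0 mM at both doses, and those of the remaining marker lists did not. Summed primitive endoderm markers overlapped 0 mM at both doses. Summed markers of differentiated smooth muscle overlapped 0 mM at 60 mM and lay above it at 80 mM. A sum follows its abundant genes, and single genes could go the other way. Of the 5 primed epiblast genes, 4 reached 1 FPKM in a library at 0 mM, 3 at 60 mM and 2 at 80 mM. Fgf5 was at 0 in every 60 mM library. The part of these lists in the changes of the contractile genes was not tested.

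The genes most like the mean standardized profile of the 10 over the 12 cell-state libraries, out of 10619 ranked, were Sh3bp5 (Pearson r 0.9990), Msn (0.9990), Gas6 (0.9983), Pak3 (0.9977) and Ghr (0.9973). Msn encodes moesin, which links actin to the plasma membrane. The members' own r with that profile, to which each contributes, ran from 0.8825 for Cnn1 to 0.9963 for Flna. In these 12 libraries the MEF group sets most of the spread, and the libraries of a group are close to each other. Over the 9 lactate libraries the members did not share a profile: Vcl (0.8370), Myl9 (0.7997), Tpm1 (0.7439), Cnn2 (0.6722) and Tpm2 (0.5745) ran with their mean, and Actn1 (-0.4774) and Flna (-0.4853) against it.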

How the data were processed

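RNA from 21 mouse libraries was analysed in 7 groups of 3, grouped by the labels. Trizol extracts of total RNA were made into TruSeq libraries, per the labels' protocols. Per the submitters' processing notes, HISAT2 2.0.4, StringTie 2.1.4 and mm10 were used, and the sources used here do not give the annotation. The authors deposited FPKM, with the cell states and the lactate series normalized apart, and groups were compared only within each table. Read depth is unknown: FPKM times length in single-exon genes showed no common step (0.759 to 2.39% of genes shared the commonest value), and no counting interval is printed.

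Entries sharing a name (35 and 112 names, no member) were summed. Genes at 1 FPKM or more in at least 3 libraries were tested on log2(FPKM + 1), where fold changes of low genes are understated, with limma 3.58.1 in R 4.3.3: every group of the table in the fit, a mean trend, and Benjamini-Hochberg adjustment over 16358 (cell states) or 13271 (lactate) genes at a threshold of 0.05. Fold changes in words are ratios of mean FPKM. Gene positions are from GENCODE M21 (GRCm38), promoters from RefSeq. Tables and plots were made in Python 3.11.15 (matplotlib 3.10.9, pandas 2.3.3, numpy 2.4.6). The members and lists were chosen with earlier results of these data known. Named were all 10 members, genes of the wider list by role, and per table the 5 non-member genes most like the members' mean profile, with 5 FPKM or more in the highest group mean and no predicted-gene name; the lactate ones are in the closing section. A gene counted in the wider list is not reported here by name. Settings varied were the scaling (median-of-ratios or quantile), the pseudocount (0.1 or 5), the filter (none or 5 FPKM), the groups in the fit (those compared only), a replicate block, and single libraries left out.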

Additional observations from a re-analysis of the deposited data

How the results depend on the processing

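Of 948 recomputed values for 51 member results, 898 kept their direction and their side of the threshold, 23 changed sign, 11 gained and 16 lost a call, and 31 of the 51 results never changed. The counts of members higher in 2CLCs were 5 with median-of-ratios scaling and 0 to 1 without single libraries (Acta2 without 2CLC replicate 1, Tagln without ESC replicate 1, Myl9 without EpiSC replicate 1), and those lower were 2 with median-of-ratios scaling and 3 with quantile normalization. Without single libraries, 0 to 1 were lower in EpiSCs (1 without EpiSC replicate 1) and 0 to 3 higher at 60 mM, where no filter gave 1. At 60 mM that count was 0 without 0 mM replicate 1 or 60 mM replicate 2. For these the cause was not tested.

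Signs changed with median-of-ratios scaling for Cnn1 (0.08), Actn1 (0.34), Flna (0.38) and Vcl (0.58) in 2CLCs, with quantile normalization for Vcl in 2CLCs (0.27), Myl9 at 80 against 0 mM (-0.06) and Actn1 at 80 against 60 mM (0.01), and with a pseudocount of 5 for Myl9 at 60 mM (0.00). Without single libraries, signs changed for Cnn1 in 2CLCs (-0.13 to 0.02), Actn1 in EpiSCs (-0.21 to 0.01), Myl9 at 60 mM (-0.10 to 0.08) and 80 mM (-0.02 to 0.18), and, at 80 against 60 mM, Tpm1 (-0.08 to 0.03), Myl9 (-0.02 to 0.20), Actn1 (-0.04 to 0.01) and Vcl (-0.06 to 0.04). Tpm1 was not called without a filter at 60 mM (adjusted p = 0.0573) or 80 mM (adjusted p = 0.0774). Over all genes, 2133 were higher in 2CLCs with a filter of 5 FPKM and 1729 to 1901 without a 2CLC library, and 2626 at 80 mM with that filter; at 80 against 60 mM no filter gave 321 higher and 135 lower, and leaving out a 60 or 80 mM library 237 to 343 and 106 to 168.

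Equal replicate numbers did not pair libraries, since deviations of same-numbered libraries correlated between -0.03 and 0.07. With the replicate as a block, 0 members were higher and 5 lower in 2CLCs, 9 higher in EpiSCs, 10 higher in MEFs, 2 higher and 2 lower at 60 mM, and 3 higher and 2 lower at 80 mM, and no member call changed.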

Other observations

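In the lactate libraries the genes most like the mean standardized profile of the 7 tested members, out of 8230 ranked over 9 libraries, were Sbf1 (Pearson r 0.9356), Slc25a33 (0.9321), Prkcz (0.9266), Acot8 (0.9210) and Nop9 (0.9066). Thy1, a surface protein listed as a fibroblast marker, stood at 0.50 ± 0.0493 FPKM with 0 mM, 2.93 ± 0.367 with 60 mM and 4.10 ± 0.104 with 80 mM lactate (SD, n = 3 each), and it holds most of the summed fibroblast markers at 60 and 80 mM. In the same libraries Twist1, another listed fibroblast marker, stood at 1.45 ± 0.0553, 0.697 ± 0.339 and 0.604 ± 0.114 FPKM.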
